A study of Mus musculus with 6 samples.

Results

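The 4 libraries compared here were 2 TruSeq and 2 NEBNext small RNA libraries of mouse serum, out of 6 libraries in the series, and they were chosen by the library preparation kit named in the sample labels. All serum came from healthy male and female 129/SVj mice aged 2 to 9 months with no treatment, and RNA isolated from 100 μl of serum went into each library. The TruSeq libraries were made with the small RNA kit v2 of Illumina and the NEBNext libraries with the Multiplex Small RNA kit of New England Biolabs, and products of 125 to 153 bp were collected in every case. The other 2 libraries, made with the TailorMix kit, entered the fits for the estimate of the spread and the filter on low counts, and no value of theirs is compared here. The labels number the serum 1 and 2 within each kit, but it is not stated whether the same serum was used with both kits, so kit and serum cannot be told apart. With duplicates only, p-values measure the spread within kits, estimated jointly over the features of a fit. That spread may be partly technical.

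Both kits join an adapter to each end of an RNA before reverse transcription and amplification, so a read count reflects how readily an RNA passed these steps as well as its amount. Mouse serum is known for fragments of transfer RNA, which arise when the mature molecule is cut in its anticodon loop. It also holds microRNAs, which are shorter than these fragments and are carried by protein complexes and vesicles. A tRNA type means here all tRNA genes that carry the same amino acid, and an isoacceptor means those that also share an anticodon. Fragments of small nuclear and small nucleolar RNAs, which guide splicing and the modification of other RNAs, were far scarcer.

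The miRNA that could be named was miR-16-5p, often used as a reference in serum. Its mature sequence, from RefSeq on GRCm38.p6, is shown because the same 22 bases are made from 2 loci, Mir16-1 at chr14:61631936-61631957 on the minus strand and Mir16-2 at chr3:69009918-69009939 on the plus strand, which its count does not separate. Capitals mark the seed, bases 2 to 8.
miR-16-5p: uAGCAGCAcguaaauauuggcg

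The TruSeq libraries held 11620980 and 9417070 annotated reads and the NEBNext libraries 26256012 and 16983247, where annotated reads are all reads listed as miRNA, tRNA, rRNA, snRNA, snoRNA or piRNA. TruSeq still gave more miRNA reads, 351758 and 282076, against 224864 and 165139 with NEBNext. The share of miRNA in annotated reads was 3.03% and 3.00% with TruSeq and 0.856% and 0.972% with NEBNext. The means were 3.01% ± 0.0223 and 0.914% ± 0.0820 (SD, n = 2 each), a 3.29-fold difference. tRNA took 96.8% ± 0.0103 with TruSeq and 98.8% ± 0.147 with NEBNext. Neither class overlapped between the kits (exact permutation test, two-sided, p = 0.333 for each, the smallest p that 2 against 2 libraries allow).

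The 4 remaining classes moved in different directions. snRNA was 4.52-fold more abundant with NEBNext, at 0.0342% and 0.0482% of annotated reads against 0.00827% and 0.00996% with TruSeq. piRNA was 1.85-fold more abundant with NEBNext, at 0.140% and 0.209% against 0.0897% and 0.0987%. Without NEBNext replicate 2 the difference of TruSeq from NEBNext in piRNA was -0.0453 in place of -0.0801 percentage points. snoRNA went the other way, at 0.0171% and 0.0165% with TruSeq and 0.0105% and 0.0126% with NEBNext, a ratio of 1.46. rRNA shares overlapped, at 0.0287% and 0.0357% with TruSeq and 0.0223% and 0.0291% with NEBNext. The exact permutation test gave p = 0.333 for snRNA, piRNA and snoRNA and p = 0.667 for rRNA. Intervals of single libraries (95% Wilson) cover counting error only; for snRNA, the scarcest class with TruSeq, they were 0.00776% to 0.00881% and 0.00934% to 0.0106%.

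Which tRNA types made up the tRNA reads differed strongly between the kits. Val and His together took 50.9% and 55.4% of tRNA reads with TruSeq but 7.02% and 8.17% with NEBNext, where Glu and Gly together took 88.5% or more, against 45.1% and 40.3% with TruSeq. Val was 32.5% and 37.3% of tRNA reads with TruSeq and 4.71% and 5.36% with NEBNext. His was 18.5% and 18.1% with TruSeq and 2.30% and 2.81% with NEBNext. In both types the TruSeq duplicates lay close together and far above both NEBNext libraries. Glu was 30.9% and 25.0% with TruSeq and 50.9% and 50.7% with NEBNext, and Gly was 14.2% and 15.3% against 39.2% and 37.9%. Val ranked first with TruSeq and Glu with NEBNext. On the log2 scale of shares, the difference of TruSeq from NEBNext was 2.79 ± 0.12 (SE) for Val, 2.84 ± 0.13 for His, -0.86 ± 0.10 for Glu and -1.39 ± 0.11 for Gly (edgeR quasi-likelihood test, Benjamini-Hochberg adjusted p = 4.17e-31, 1.84e-30, 2.38e-11 and 8.44e-19). The size of these p-values rests on a spread estimated jointly over all types, not on the duplicates of a single type.

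Across all 21 types, 85.7% passed the adjusted threshold of 0.05, which is 18 types, with 7 higher (33.3%) and 11 lower (52.4%) in TruSeq as shares of tRNA reads. These directions are those of shares: when 4 types make up at least 95.7% of the reads, a rise of some forces a fall of others. With TMM normalization, whose scaling assumes that most types do not differ, the median log2 difference moved from -0.86 to 0.55, 11 types were higher and 7 lower, and Glu turned to 0.55 and Gly to 0.027. DESeq2 called 10 higher and 10 lower, and Glu was not among them (-0.17, adjusted p = 0.217). Relative to each other the types do not depend on that choice. The ratio of Glu to Val reads was 0.952 and 0.670 with TruSeq and 10.8 and 9.45 with NEBNext, and that of Gly to His reads was 0.769 and 0.843 against 17.0 and 13.5. The ratio of Val to His reads was 1.76 and 2.06 with TruSeq and 2.04 and 1.91 with NEBNext and overlapped between the kits (exact permutation test, p = 1). Together the 4 types took 96.0% and 95.7% of tRNA reads with TruSeq and 97.1% and 96.7% with NEBNext, so their sum changed little while its makeup did.

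**Figure D1:**
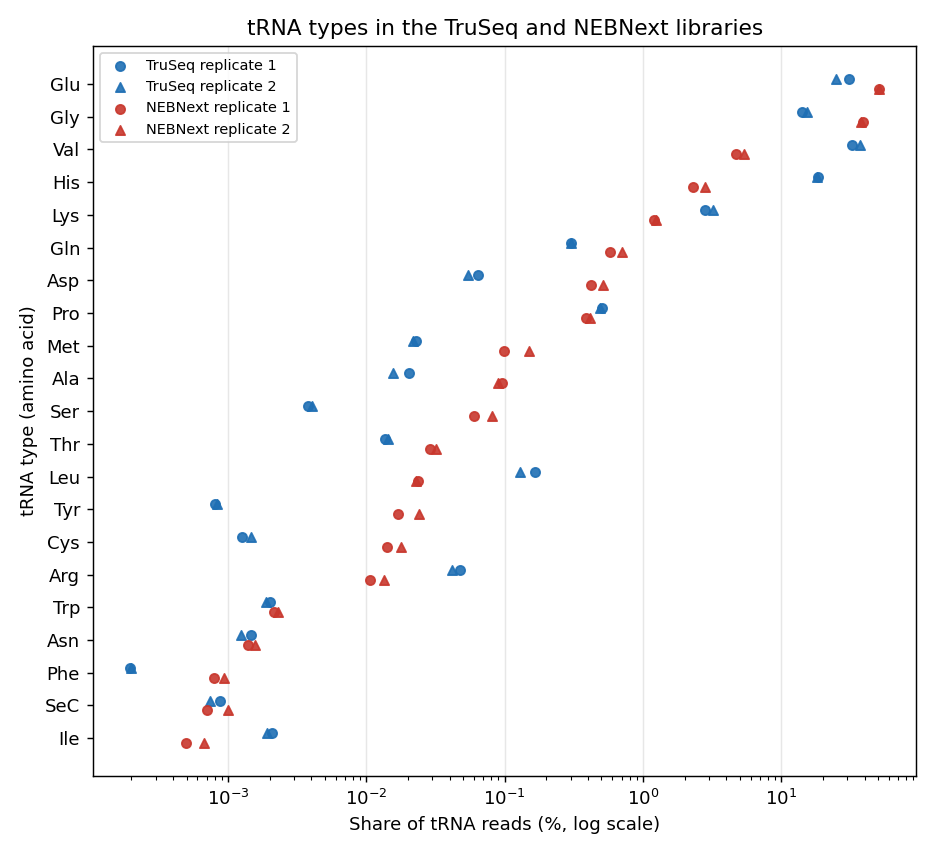
Share of tRNA reads (%, log scale) of each of the 21 tRNA types, with 1 point per library, blue for TruSeq and red for NEBNext, and types ordered by their NEBNext mean. The NEBNext points of Val and His lie at 2.30% to 5.36%, left of all TruSeq points of those types at 18.1% to 37.3%, and the largest gap in the other direction is that of Tyr.

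Among the less abundant types that were higher with TruSeq, Leu was 0.166% and 0.129% of tRNA reads with TruSeq and 0.0235% and 0.0229% with NEBNext, a log2 difference of 2.67 ± 0.17 (SE). Lys was 2.81% and 3.21% against 1.21% and 1.24% (1.30 ± 0.14). Arg followed with a log2 difference of 1.89 ± 0.18 and Ile with a mean share 3.43-fold higher. No TruSeq library overlapped a NEBNext library in any of these 4, which held for every type but Asn and SeC. Pro differed least of the types called, at 0.503% and 0.491% against 0.384% and 0.416% (0.31 ± 0.15, adjusted p = 0.0494 by edgeR), and this call was lost in the fit of the 4 libraries alone (adjusted p = 0.148) and without TruSeq replicate 1 (0.0902) or 2 (0.0556).

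The types lower with TruSeq included the most uneven ones. Tyr was 8.09e-04% and 8.33e-04% of tRNA reads with TruSeq and 0.0169% and 0.0238% with NEBNext, or 91 and 76 reads against 4379 and 3996, a log2 difference of -4.63 ± 0.22 (SE). Ser was 0.00378% and 0.00404% against 0.0601% and 0.0813% (-4.18 ± 0.20). Cys stood at -3.55 ± 0.21. Asp was 0.0642% and 0.0543% with TruSeq and 0.422% and 0.510% with NEBNext (-2.98 ± 0.16). Met stood at -2.47 ± 0.17, Ala at -2.36 ± 0.18 and Phe at -2.11 ± 0.29. Thr and Gln were lower by less, at -1.11 ± 0.17 and -1.09 ± 0.16. With TMM normalization Thr turned to 0.30 and Gln to 0.32, neither called. The 3 types that were not called were Trp, Asn and SeC, the selenocysteine tRNA, with log2 differences of -0.19 ± 0.20, -0.12 ± 0.21 and -0.06 ± 0.23.

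Of 47 isoacceptors with at least 4 counts in at least 2 of the 6 libraries, 61.7%, or 29, differed, with 9 higher (19.1%) and 20 lower (42.6%) in TruSeq. With TMM normalization 16 were higher and 14 lower. The tables list a sequence that occurs in several gene copies under a single gene name, so the split within a type is less certain than the type itself. Of the Pro reads, 72.5% and 5.74% carried the CGG name in TruSeq replicates 1 and 2, and 10.8% and 82.1% the TGG name. The Val-AAC share of Val reads was 5.65% and 41.7% in the NEBNext duplicates. Neither Pro-CGG (log2 difference 0.44 ± 1.20) nor Val-AAC (0.10 ± 0.94) was called, and Val-AAC stood at 2.33 without NEBNext replicate 2 (adjusted p = 0.00489) and at -0.74 without replicate 1 (adjusted p = 0.0521).

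Isoacceptors above 1% of tRNA reads otherwise moved with their type. Val-CAC was 31.0% and 35.6% of tRNA reads with TruSeq and 4.27% and 2.92% with NEBNext, a log2 difference of 3.21 ± 0.21 (SE, adjusted p = 2.12e-04 by edgeR). Glu-CTC and Glu-TTC both stood at -0.86, with SEs of 0.12 and 0.09, and with TMM normalization at -0.026 and -0.028, no longer called. The Glu-CTC share of Glu reads was 89.1% and 86.3% with TruSeq and 88.2% and 87.4% with NEBNext, so the makeup of Glu overlapped between the kits. Gly-GCC made up at least 98.8% of Gly reads in every one of the 4 libraries and stood at -1.40 ± 0.06. His-GTG, which was all but the whole of His, stood at 2.84 ± 0.13, and Lys-CTT at 1.26 ± 0.15. The adjusted p of His-GTG was 1.17e-04 by edgeR, against 1.84e-30 for His among the types. Their SEs were nearly equal, at 0.132 and 0.128. The gap in p thus came from the fit, not from the difference or its SE.

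Within a type, the weight of its single most abundant sequence also differed. That sequence took 84.4% and 84.3% of Ser reads with NEBNext but 26.6% and 31.8% with TruSeq. For Tyr it took 68.4% and 69.9% with NEBNext and 8.79% and 13.2% with TruSeq, and for Asp 42.4% and 45.2% against 13.2% and 11.9%. The order was turned in Glu, where it took 58.9% and 57.8% with TruSeq and 32.7% and 32.2% with NEBNext, and in His, at 53.7% and 52.0% against 33.7% and 28.2%. Sequences are numbered within each library, so whether the leading one was the same with both kits was not tested. By the gene name listed, the Ser reads of NEBNext were mostly Ser-TGA, at 86.5% and 90.4% of Ser reads, whereas Ser-AGA led with TruSeq at 68.5% and 68.8%. A sequence in several gene copies carries a single name, so this split is less certain than the Ser total. In reads, Ser-TGA had 34 and 33 with TruSeq and 13492 and 12326 with NEBNext, while Ser-AGA, at 291 and 253 against 1018 and 376, was not called.

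Among the miRNAs, 252 of 360 tested, 70% (the percentage called), differed in their share of miRNA reads, with 61 higher in TruSeq (16.9%) and 191 lower (53.1%). The 360 include 9 miRNAs that passed the filter through the TailorMix libraries and had no read in the 4 compared, and with these 4 libraries alone 241 of 315 were called. The higher ones took 80.1% of TruSeq miRNA reads and 25.6% of NEBNext miRNA reads, and the lower ones took 12.9% and 66.9%. Both groups were chosen by these same shares, so the sums are a description only. The median log2 difference of all tested miRNAs was -1.48, or -1.29 with miRNAs at 0 in both libraries of a kit set to their limit of 3 counts. With TMM normalization, which shifted the log2 differences by a median of 1.05, 94 were higher and 153 lower. As shares of all annotated reads, of which miRNA took 3.29 times more with TruSeq, 134 were higher and 128 lower.

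Duplicates of a kit were much closer to each other than libraries of different kits. Over the 126 miRNAs with at least 10 counts in all 4 libraries, the median absolute log2 ratio of shares was 0.22 between the TruSeq libraries and 0.11 between the NEBNext libraries. Between a TruSeq and a NEBNext library it was 1.60 to 1.62, and 63.5% to 68.3% of these miRNAs differed by more than 2-fold. In mean shares, 25 of the 126 were at least 2-fold higher and 57 at least 2-fold lower with TruSeq. At least 10-fold differences were seen for 5 higher and 22 lower miRNAs. As a description, Pearson's r of log2 shares across these miRNAs was 0.99 within each kit and 0.66 to 0.67 between kits.

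**Figure D2:**
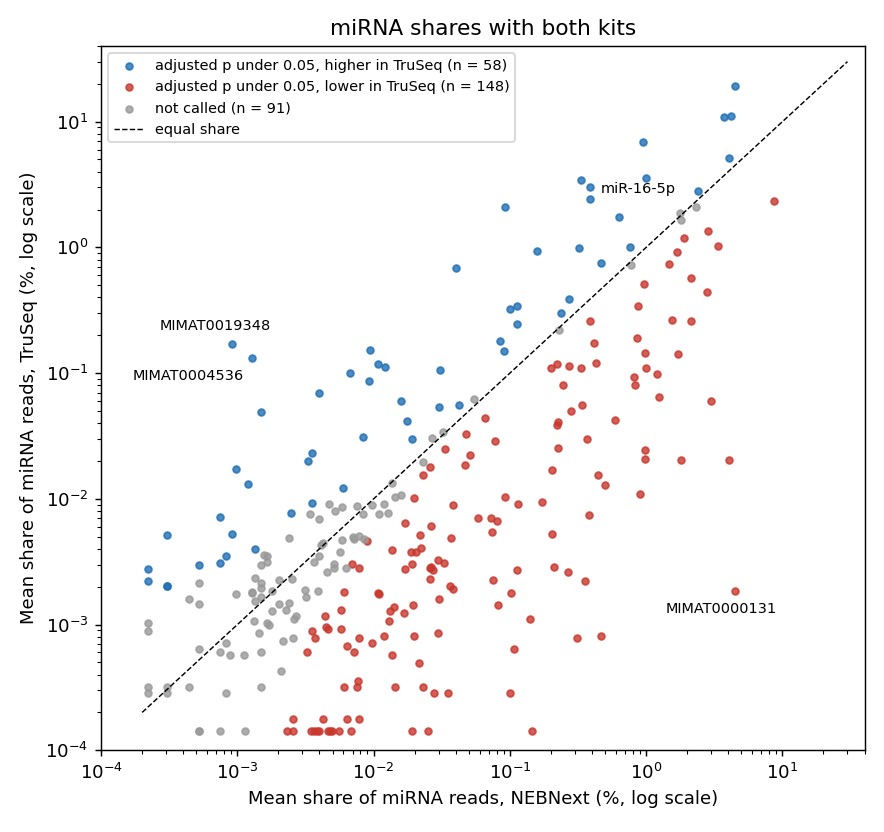
Mean share of miRNA reads with NEBNext (x axis) and TruSeq (y axis), both in % on log scales, for the 297 tested miRNAs with reads from both kits, coloured by the edgeR call. The 58 blue points above the line of equal shares reach the highest TruSeq shares, and the 148 red points below it include MIMAT0000131, at 4.45% with NEBNext and 0.00185% with TruSeq.

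miR-16-5p was among the miRNAs that were higher with TruSeq. It had 11322 and 7921 reads with TruSeq and 904 and 617 with NEBNext, or 3.22% and 2.81% against 0.402% and 0.374% of miRNA reads. The TruSeq libraries lay far above both NEBNext libraries, by 2.96 ± 0.10 on the log2 scale (SE, adjusted p = 2.22e-141 by edgeR). It ranked 8 among miRNAs with TruSeq and 49 with NEBNext.

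Both lists of the 10 most abundant miRNAs shared 4 members. The most abundant TruSeq miRNA took 18.4% and 20.1% of miRNA reads there and 4.32% and 4.61% with NEBNext, where it ranked second. The most abundant NEBNext miRNA took 8.86% and 8.61% there and 2.44% and 2.21% with TruSeq, where it ranked 11. As a description, since they were chosen for their share in that kit, the 10 leading TruSeq miRNAs had log2 differences from 0.23 to 3.36, and 6 of the NEBNext leaders had values below 0. The miRNA ranked 3 with NEBNext, MIMAT0000131, had 9773 and 7513 reads there and 8 and 4 with TruSeq, where it ranked 198. From the pooled reads its share was 2341-fold lower with TruSeq (exact 95% interval 1340 to 4532, counting error only). The miRNA ranked 5 with NEBNext took 4.01% and 4.09% there and 0.0233% and 0.0177% with TruSeq, and the one ranked 9 took 2.91% and 3.04% against 0.0566% and 0.0631%.

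The 92 miRNAs that passed the test, had the same sign in each TruSeq and NEBNext pair and reached a mean of 0.1% in either kit comprised 31 higher and 61 lower in TruSeq. The files give miRNAs by miRBase identifier, so only the extremes of these are printed. The highest log2 difference, 7.69 ± 0.32 (SE), was that of MIMAT0019348, with 619 and 459 reads with TruSeq and 0 and 3 with NEBNext. Its pooled share was 221-fold higher with TruSeq, with an exact 95% interval of 75.5 to 1074. That interval covers counting error only and is wider than the SE implies, so the SE overstates the precision. MIMAT0004536 had 475 and 360 reads against 3 and 2 (103-fold, 43.9 to 317). In the other direction MIMAT0003479 had no read in either TruSeq library and 273 and 219 with NEBNext. Against a limit of 3 counts over both TruSeq libraries, 4.73e-04% of miRNA reads, its share was at least 266.5-fold lower with TruSeq, and the exact 95% lower limit of the pooled ratio was 216.

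NEBNext listed more different miRNAs from fewer miRNA reads. With at least 4 counts, 253 and 227 miRNAs were detected with TruSeq and 307 and 275 with NEBNext (240 ± 18.4 and 291 ± 22.6, SD, n = 2 each, exact permutation test, p = 0.333). After thinning each library to 165139 miRNA reads the numbers were 194 and 197 against 279 and 275. All 4 libraries shared 172 miRNAs, which is 81.1% of the 212 detected in both TruSeq libraries and 65.6% of the 262 detected in both NEBNext libraries. In both NEBNext libraries but neither TruSeq library, 73 were detected, the most abundant at 0.463% of NEBNext miRNA reads, and 33 of them had no read with TruSeq. The reverse held for 25, of which 3 had no read with NEBNext. TruSeq reads were concentrated on fewer miRNAs: 5 miRNAs made up 50% of the miRNA reads in each TruSeq library, and 14 and 13 in the NEBNext libraries. The 10 most abundant took 67.9% and 69.1% with TruSeq and 42.3% and 43.3% with NEBNext.

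**Figure D3:**
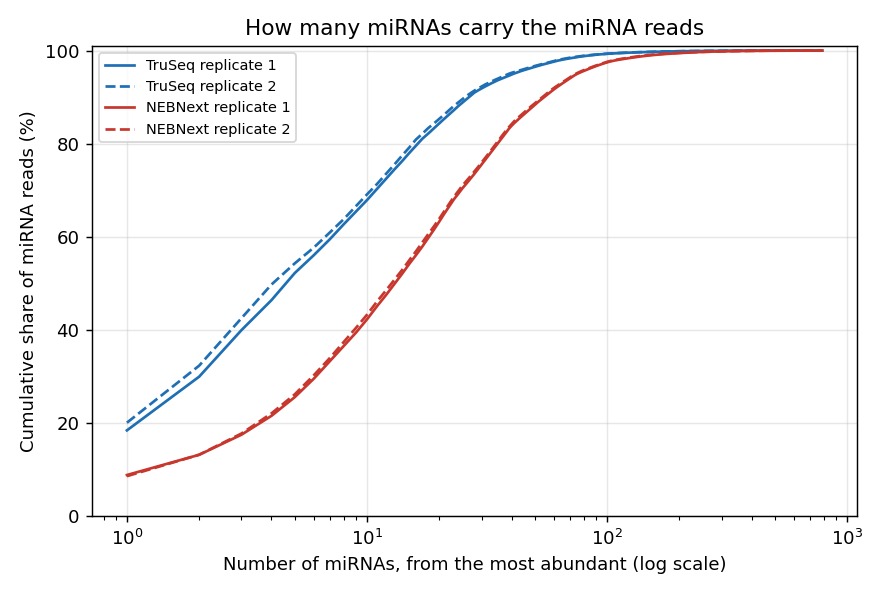
Cumulative share of miRNA reads (%) against the number of miRNAs counted from the most abundant (log scale), with a line per library, blue for TruSeq and red for NEBNext. The TruSeq lines start at 18.4% and 20.1% and reach 90% with 27 and 26 miRNAs, and the NEBNext lines start at 8.86% and 8.61% and reach it with 55 and 54.

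Among the snRNAs, which form the spliceosome, the excess with NEBNext was largest for U1. U1, the snRNA that recognises the start of an intron, had 45.8 and 53.5 reads per 1000000 annotated reads with TruSeq and 248 and 349 with NEBNext, 6.01-fold more. U2, which pairs with the branch point, had 18.9 and 24.4 against 58.3 and 86.8, 3.35-fold more. U11 of the minor spliceosome and U7, which acts in histone mRNA processing, were 3.11-fold and 2.87-fold higher with NEBNext. U5 and U6 went the other way but from few reads, with 27 and 24 U5 reads and 10 and 9 U6 reads with TruSeq and 22 and 33, and 10 and 3, with NEBNext. Per 1000000 annotated reads U5 was 2.32 and 2.55 against 0.838 and 1.94, and U6 was 0.861 and 0.956 against 0.381 and 0.177. Neither overlapped between the kits, nor did any other matched family. As a share of snRNA reads U1 rose from 55.4% and 53.7% with TruSeq to 72.4% and 72.5% with NEBNext. These families were put together from near-identical gene copies and no test was run on them.

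**Figure D4:**
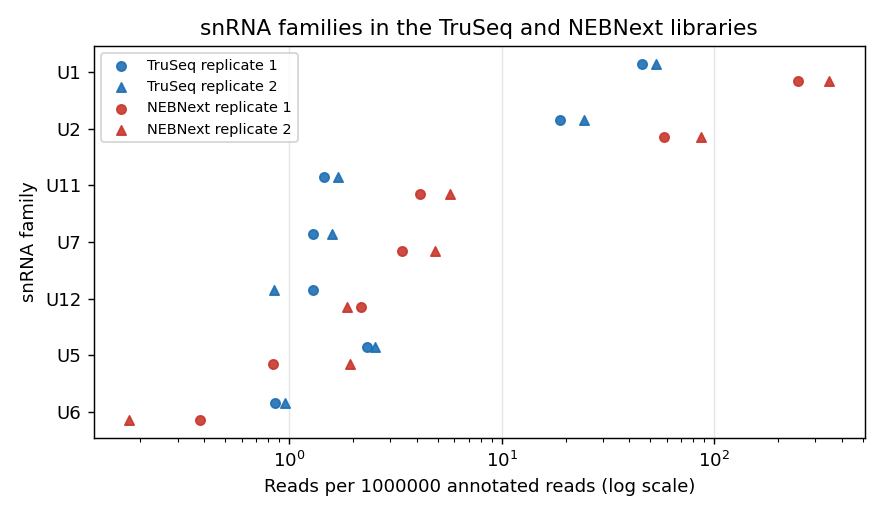
Reads per 1000000 annotated reads (log scale) of 7 snRNA families, with 1 point per library, blue for TruSeq and red for NEBNext. The red points of U1, U2, U11, U7 and U12 lie right of the blue ones, and those of U5 and U6 lie left of them.

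The reads listed as rRNA were nearly all 5S rRNA, the small RNA of the large ribosomal subunit, at 99.2% and 99.3% with TruSeq and 95.4% and 98.3% with NEBNext. Its copies cannot be separated, since 32 of the listed rRNA genes have the sequence of n-R5s100. Of the 130 rRNA genes listed, 92 matched 5S, the only rRNA used as a reference. These shares thus depend on which genes the class lists, and other rRNAs of serum were not assessed. In piRNA, the entries named uc012ath.2 took 99.7% and 91.9% of reads with TruSeq and 99.96% and 99.94% with NEBNext. A single sequence listed under another entry, uc029tqd.1, had 732 reads in TruSeq replicate 2 and none in the other 3 of these libraries. Of the uc012ath.2 entries, uc012ath.2_4346 took most piRNA reads with both kits, from 68.4% to 76.4% in the 4 libraries. Entry uc012ath.2_4344 was 9.65% and 8.98% with TruSeq and 1.77% and 1.40% with NEBNext, and entry uc012ath.2_4347 was 3.09% and 3.29% against 13.7% and 14.2%.

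The snoRNA class was tested gene by gene after its values had been seen. Of 90 genes, 31.1% differed as shares of snoRNA reads, 28 in all (42 of 74 in a fit of the 4 libraries alone), with 8 higher (8.89%) and 20 lower (22.2%) in TruSeq. A library holds only 1555 to 2750 snoRNA reads, and the number fell to 11 without TruSeq replicate 1, to 16 without TruSeq replicate 2 and to 18 without NEBNext replicate 2. Genes named Snord, which are box C/D snoRNAs that mostly guide methylation of ribosomal RNA, took 58.7% and 60.6% of snoRNA reads with TruSeq and 43.6% and 41.3% with NEBNext. Among them Snord104 alone took 21.7% and 20.6% with TruSeq and 7.93% and 7.29% with NEBNext. Of 35 tested genes named Snord, 6 were higher and 9 lower in TruSeq. Their median log2 difference was -0.79, against -0.97 for all tested genes of the class. Genes named Snora, which are box H/ACA snoRNAs that mostly guide pseudouridylation, took 5.79% and 5.79% against 5.75% and 5.42%. Genes with other names took at least 29.5% with TruSeq and 46.0% and 48.1% with NEBNext and were not sorted by box, so these are shares of naming groups.

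Snord104, the most abundant snoRNA with both kits, was 21.7% and 20.6% of snoRNA reads with TruSeq and 7.93% and 7.29% with NEBNext, a log2 difference of 1.47 ± 0.25 (SE, adjusted p = 0.00341 by edgeR). Snord96a had 103 and 80 reads with TruSeq and 12 and 13 with NEBNext (3.30 ± 0.38). Snord87, in an intron of the host gene Snhg6, stood at 2.61 ± 0.56 and Snora36b, in an intron of Rab3gap2, at 2.24 ± 0.41. Snord87 was no longer called without either TruSeq library or without NEBNext replicate 1 (adjusted p = 0.0604 to 0.0904), nor Snora36b without TruSeq replicate 1 (0.0708). The gene named Mir3096, listed in the snoRNA class, had 61 and 59 reads against 7 and 5 (3.77 ± 0.39). Counting error alone exceeds that SE, as the NEBNext reads were few. Snord83b (1.02 ± 0.29), in an intron of Rpl3, was called with all libraries but in none of the 4 fits without a single library.

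In the other direction, the Mir1839 gene, annotated as a small Cajal body RNA, had 2 and 2 reads with TruSeq and 169 and 118 with NEBNext, a log2 difference of -5.61 ± 0.40 (SE, adjusted p = 7.26e-05 by edgeR). The RefSeq hairpin of miR-1839 lies largely within it. With few TruSeq reads, counting error alone exceeds the SEs of Mir1839, Snord95, Snord22, Snord118 and Gm23212, which overstate the precision. Snord95 had 1 and 2 reads against 46 and 51 (-4.47 ± 0.52), Snord22 7 and 4 against 68 and 58 (-3.05 ± 0.37), and Snord15b 12 and 13 against 98 and 66 (-2.21 ± 0.35). Snord118, also known as U8 and needed for maturation of the large ribosomal subunit, had 4 and 5 against 40 and 21 (-2.23 ± 0.46) and was no longer called without TruSeq replicate 1 (adjusted p = 0.0968) or 2 (0.0536). The 5 genes of this group with provisional names outside Rack1 lay between -4.18 for Gm23927 and -1.10 for Gm24148, and of these Gm23212 (-2.37 ± 0.33) alone kept its call without each single library. Another 6 of the lower genes had no read in either TruSeq library.

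In the host gene Rack1, Snord96a moved in the opposite direction from its neighbours, a case chosen after the values were seen. Snord96a at chr11:48802032-48802112 and Snord95 at chr11:48803139-48803206 lie on the plus strand of Rack1, which encodes a scaffold protein of the ribosome, 1026 bases apart on GRCm38, and overlap an exon of some of its annotated transcripts. Gm25296, at chr11:48800866-48800932 in the same gene, shares a run of 34 bases with Snord95, so reads of these 2 may be mixed, and it was also lower with TruSeq, with 9 and 9 reads against 54 and 72 (-2.36 ± 0.41, not called without TruSeq replicate 1, adjusted p = 0.0708). Also chosen after the values were seen, Gm23212 at chr1:161036682-161036741 and Gm26224 at chr1:161035394-161035473, on the plus strand of chromosome 1, were both lower with TruSeq. Gm26224, below the 1% set for naming, had 0 and 0 reads with TruSeq and 13 and 8 with NEBNext. Their neighbours Gm22489 (-2.75), Snord80 (-2.63) and Gm25789 (-1.12) were not called. On the plus strand of chromosome 19, near Snord22, Gm22680 (-1.63), Gm25855 (0.65) and Gm25894 (0.42) were not called.

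Sequences of snoRNAs that moved each way are shown because both groups carry the elements of box C/D RNAs. They are GENCODE M21 transcripts on GRCm38, with the C box TGATGA (starting within the first 16 bases) and the D box CTGA (starting within the last 16) in capitals, searched on the RNA strand. The first 3 were higher with TruSeq and the last 3 lower.
Snord104: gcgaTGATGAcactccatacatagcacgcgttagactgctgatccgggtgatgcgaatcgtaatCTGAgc
Snord96a: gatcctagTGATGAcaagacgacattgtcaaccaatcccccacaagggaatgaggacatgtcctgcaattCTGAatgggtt
Snord87: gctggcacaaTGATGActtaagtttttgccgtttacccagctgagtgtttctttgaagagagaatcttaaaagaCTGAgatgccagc
Snord95: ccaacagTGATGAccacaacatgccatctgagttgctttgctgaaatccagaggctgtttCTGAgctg
Snord15b: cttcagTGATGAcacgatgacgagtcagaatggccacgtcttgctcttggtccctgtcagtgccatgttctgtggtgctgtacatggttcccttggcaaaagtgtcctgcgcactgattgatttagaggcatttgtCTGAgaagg
Snord22: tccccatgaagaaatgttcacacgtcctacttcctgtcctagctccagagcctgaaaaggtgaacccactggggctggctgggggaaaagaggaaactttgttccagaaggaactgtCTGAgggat
Both boxes were found in 69.4% of 98 Snord transcripts, and Snord22 lacks the C box letters in that window. The coordinates of the others are chr11:106500993-106501062 (plus strand) for Snord104, chr1:9942463-9942549 (minus) for Snord87, chr7:99479563-99479707 (minus) for Snord15b, which lies in Rps3, and chr19:8725866-8725991 (plus) for Snord22, which lies in Snhg1.

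**Figure D5:**
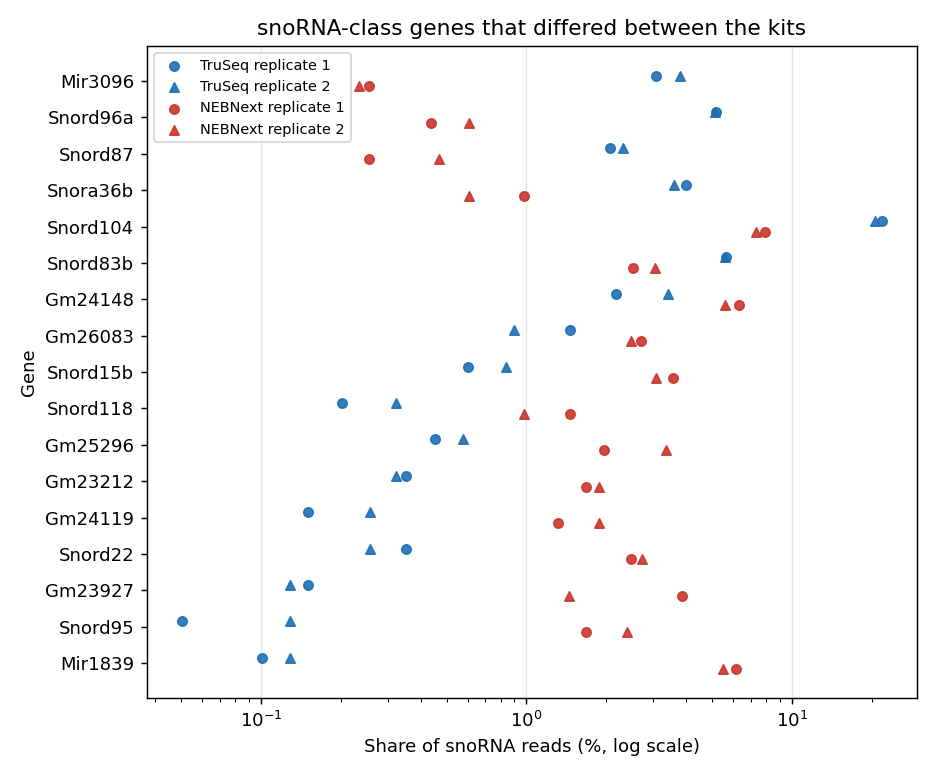
Share of snoRNA reads (%, log scale) of 17 genes of the snoRNA class, out of the 18 that were called and reached 1% in the mean of either kit, with 1 point per library, blue for TruSeq and red for NEBNext. The upper 6 genes are higher with TruSeq, led in share by Snord104 at 20.6% to 21.7%, and the lower 11 are higher with NEBNext, with Mir1839 at 5.52% to 6.15% against 0.101% and 0.129%.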

How the data were processed

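The authors trimmed reads with cutadapt 1.8.1, kept those of at least 15 bp with a quality score of 20 in 80% of bases, mapped them without mismatches with Bowtie 1.1.2 to GRCm38 and annotated them with miRBase release 20, UCSC tracks and Ensembl release 84. The deposited values are raw read counts per miRNA or per distinct sequence, not normalized. Here counts were summed by class, tRNA type, anticodon and gene (Python 3.11.15, pandas 2.3.3), and unlisted items were taken as 0. TruSeq was contrasted with NEBNext in edgeR 4.0.16 (R 4.3.3, glmQLFit and glmQLFTest, Benjamini-Hochberg adjustment), fitted on all 6 libraries with total miRNA, tRNA or snoRNA reads as library size and no TMM normalization, so that differences are of shares. Features needed 4 counts in 2 libraries, except tRNA types. Each SE was computed as the absolute log2 difference divided by the square root of the F statistic of its test. With few reads in a kit it can be smaller than counting error alone, and then overstates the precision. The fits were also run on simulated counts with a fixed spread for all features, which does not check the spread in these libraries. DESeq2 1.42.0, TMM and other settings were alternatives. snRNA and rRNA copies were grouped with blastn 2.17.0 (at least 85% identity and 80% coverage). Ensembl gene identifiers were matched to GENCODE M21, which named 313 of 327 snoRNA genes.

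The titles share replicate numbers between the kits, but no label says what they pair. miRNAs are listed by miRBase identifier and were not matched to names here (miR-16-5p is identified in the study's text), so comparisons by miRNA family, tissue, arm or sequence were not made. miRNAs were named by a rule: the 10 most abundant of each kit, and the largest differences among called miRNAs that moved alike in all 4 pairs and reached 0.1% in a kit; at most 2 identifiers are printed per direction. All tRNA types, anticodons above 1%, and called snoRNA genes above 1% were eligible; 1 of these snoRNA genes is not reported here. The members and lists were chosen with earlier results of these data known.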

Additional observations from a re-analysis of the deposited data

Results flagged for a closer look

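Reads listed under several RNA classes at once, which entered no class above, exceeded 3 counts in 3 of the 4 libraries: there were 6 in TruSeq replicate 1 and 2 in replicate 2, against 205 in NEBNext replicate 1 and 130 in NEBNext replicate 2. They were a signal outside the classes compared, and no test was run on them.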

How the results depend on the processing

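Shares depend on the scaling. With TMM normalization 94 miRNAs, 11 tRNA types, 16 isoacceptors and 14 snoRNA genes were higher in TruSeq, and only 7 tRNA types lower; Asn (1.29), Gln (0.32), Glu (0.55), Gly (0.027), SeC (1.34), Thr (0.30) and Trp (1.22) changed sign. With DESeq2 105 miRNAs were lower and 16 isoacceptors higher, and Asn (0.56), SeC (0.63) and Trp (0.50) changed sign. On annotated reads 134 miRNAs were higher. The difference in miRNAs detected, 51 fewer with TruSeq, was -122 at 1 count and -81.5 after thinning. Without single libraries, called miRNAs numbered 190 to 240, tRNA types 17 to 18, isoacceptors 26 to 30 and snoRNA genes 11 to 19 (3 to 5 higher and 8 to 14 lower). The sign also changed for SeC (-0.31 to 0.20, above 0 without TruSeq replicate 2 or NEBNext replicate 2) and for Val-AAC (-0.74 to 2.33, below 0 without TruSeq replicate 2 or NEBNext replicate 1). The cause was not tested. With the replicate number as a block 240 miRNAs, 17 tRNA types, 27 isoacceptors and 38 snoRNA genes (13 higher) were called; deviations of same-numbered libraries correlated at -0.0111 over 126 miRNAs and 0.200 over 21 tRNA types, and the libraries were treated as sharing only a number. The comparisons of hairpin arms were not run.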
